A study of Mus musculus with 5 samples.

Results

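The mutant-only promoter peaks are sites where catalytically inactive RNF12, RNF12 H569A,C572A, gave a ChIP-seq peak close to a transcription start site (TSS) and neither REX1 nor RNF12 WT gave an overlapping one. They were chosen by the peak calls themselves: a peak of the RNF12 H569A,C572A list on chromosomes 1 to 19 or X was taken when it shared no base with any peak of the REX1 or RNF12 WT lists and its summit lay within 1 kb of a TSS of any GENCODE M21 transcript. Of 96846 RNF12 H569A,C572A peaks on these chromosomes, 47779 (49.3%) had no overlapping peak in either other list. Of these, 5672 (11.9%) were within 1 kb of a TSS and form the set described here. They are 19.0% of the 29813 promoter peaks of the mutant list, and the other 24141 promoter peaks, which overlapped a REX1 peak, an RNF12 WT peak or both, are called shared promoter peaks below. The strength of these peaks and their absence from the other lists come from the same calls that chose them, so both are described and neither is tested.

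RNF12, also called RLIM, is an X-linked RING-type E3 ubiquitin ligase. It attaches ubiquitin to the transcription factor REX1 and so marks it for the proteasome. The H569A and C572A changes remove metal-binding residues of the RING domain, which leaves a protein without catalytic activity. Promoters of housekeeping genes commonly lie in CpG islands, which are GC-rich stretches that keep their CpG dinucleotides, whereas mobile elements and retrocopies occur in many near-identical copies across the mouse genome.

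All lines were female mouse embryonic stem cells (mESCs) of the 129/Sv-Cast/Ei background. The mutant library came from Rlim+/- cells with FLAG-V5-RNF12(H569A,C572A) and the wild-type library from Rlim+/- cells with FLAG-V5-RNF12 WT, so both still carry an Rlim allele, and the tagged proteins were made from a CAG-driven vector. For these RNF12 experiments, cells were exposed to 15 μM MG132, a proteasome inhibitor, for 3 h and cross-linked with 2 mM disuccinimidyl glutarate and 1% formaldehyde before precipitation with a V5 antibody. The REX1 library is labelled as wild-type cells with FLAG-V5-REX1, and no inhibitor treatment or cross-linking is recorded for it. The paper refers to earlier work for REX1 occupancy, so the REX1 list may differ from the RNF12 lists in these steps. The control libraries are from wild-type cells and were not analysed here. Each list comes from 1 library, so no value below has a replicate and no test between conditions was made. The deposited lists hold no read totals, so the sequencing depth behind each peak is unknown.

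The sequence under the summit divided the mutant-only promoter peaks into distinct classes, and examples of each class are printed first because the results turn on them. For each peak, all occurrences of the 32 bases at the summit were counted in the genome, in either orientation. In 3229 peaks (56.9%, 95% Wilson interval 55.6% to 58.2%, counting error only) the word occurred once, and in 2443 it occurred more than once. Examples of single-copy peaks at protein-coding genes, all in GC-rich windows, come first. They are among the highest in fold enrichment or belong to the pluripotency genes described further on. The windows below are from GRCm38.p6, run 5′ to 3′ on the strand of the gene, and have the summit near the middle. Capitals mark GC boxes (GGGCGG or its complement CCGCCC), the recognition letters of SP and KLF factors, and the E-box CACGTG.
Rnf220, chr4:117495501-117495581: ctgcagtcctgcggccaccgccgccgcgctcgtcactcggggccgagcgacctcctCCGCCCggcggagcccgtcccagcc
Iqsec2, chrX:152144138-152144218: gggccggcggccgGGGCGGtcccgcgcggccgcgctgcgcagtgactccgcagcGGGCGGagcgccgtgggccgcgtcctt
Kcnk10, chr12:98574905-98574985: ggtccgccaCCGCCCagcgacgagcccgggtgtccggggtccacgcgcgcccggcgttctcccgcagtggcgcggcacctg
Lrrn1, chr6:107529547-107529627: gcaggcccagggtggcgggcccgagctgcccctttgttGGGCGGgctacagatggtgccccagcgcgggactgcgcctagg
Klf2, chr8:72318719-72318799: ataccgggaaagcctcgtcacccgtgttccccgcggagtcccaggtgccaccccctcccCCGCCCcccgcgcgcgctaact
Tbx3, chr5:119670158-119670238: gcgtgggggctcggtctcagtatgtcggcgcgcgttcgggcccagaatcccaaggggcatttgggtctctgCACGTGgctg
Lancl1, chr1:67038726-67038755, cut to 30 bases because the summit is in a UTR: cttcctcccgcggggctccgagcagcggcc

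In most of the largest multi-copy group the summit lay in a B1 element. B1 is a short interspersed element of rodents that derives from the RNA of the signal recognition particle and keeps the internal promoter boxes of RNA polymerase III. The 4 windows below have the highest fold enrichment in that group at protein-coding genes with both the word and the B box in the window, among windows without UTR bases on the chromosomes from which sequence is printed here. They are printed on the strand of the element, and capitals mark the B1 word AGGCAGAG and the B box GTTCGANNC.
Rps24, chr14:24488063-24488153: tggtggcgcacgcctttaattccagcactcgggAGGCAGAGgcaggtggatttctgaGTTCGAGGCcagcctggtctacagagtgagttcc
Fbxw7, chr3:84863603-84863693: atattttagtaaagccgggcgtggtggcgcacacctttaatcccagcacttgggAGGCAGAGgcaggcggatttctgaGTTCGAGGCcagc
Setd2, chr9:110561685-110561775: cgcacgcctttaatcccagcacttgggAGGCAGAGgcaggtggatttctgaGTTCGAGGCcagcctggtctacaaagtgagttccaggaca
Ska3, chr14:57825318-57825408: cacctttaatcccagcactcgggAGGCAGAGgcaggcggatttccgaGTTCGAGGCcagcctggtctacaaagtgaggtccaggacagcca

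The next class lay in retrocopies of Gapdh, which encodes a glycolytic enzyme. A retrocopy is a reverse-transcribed messenger RNA pasted back into the genome, usually annotated as a processed pseudogene. Below, stretches of the Gapdh coding sequence (GENCODE M21, positions counted from 1 at the start of the longest coding transcript) stand above the peak windows that match them. Capitals mark a base that differs from Gapdh.
Gapdh, positions 241 to 301: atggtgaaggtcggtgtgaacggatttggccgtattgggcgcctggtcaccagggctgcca
Gm12033, chr11:20335953-20336013: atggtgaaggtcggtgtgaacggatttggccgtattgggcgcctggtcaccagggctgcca
Gapdh, positions 522 to 603: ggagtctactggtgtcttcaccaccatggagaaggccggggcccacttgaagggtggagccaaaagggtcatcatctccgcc
Gm2445, chr13:98402733-98402814: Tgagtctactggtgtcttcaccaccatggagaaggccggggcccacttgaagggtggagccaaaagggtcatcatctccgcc
Gapdh, positions 827 to 908: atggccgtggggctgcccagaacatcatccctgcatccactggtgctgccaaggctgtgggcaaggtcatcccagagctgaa
Gm6316, chr12:69920806-69920887: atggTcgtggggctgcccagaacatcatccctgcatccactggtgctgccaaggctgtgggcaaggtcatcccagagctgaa
Gm2451, chr3:139649965-139650046: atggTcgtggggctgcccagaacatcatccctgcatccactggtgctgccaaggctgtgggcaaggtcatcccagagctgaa

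Copy number set the mutant-only promoter peaks apart from the promoter peaks of each other set. A summit word found once was present in 93.1% of shared promoter peaks, in 95.4% of the 7189 promoter peaks found in the RNF12 WT list alone and in 94.6% of the 9123 found in the REX1 list alone. Words with over 100 copies were under 17.4% (16.4% to 18.4%) of mutant-only promoter summits and 0.696% of shared ones. They were under 0.236% of RNF12 WT-only and 0.340% of REX1-only promoter summits. Farther than 1 kb from a TSS, the mutant list went further still, since only 21.3% of its 42107 unshared distal peaks had a single-copy summit. In all of these sets the peaks come from 1 library per protein, and how the libraries differ was not tested.

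**Figure D1:**
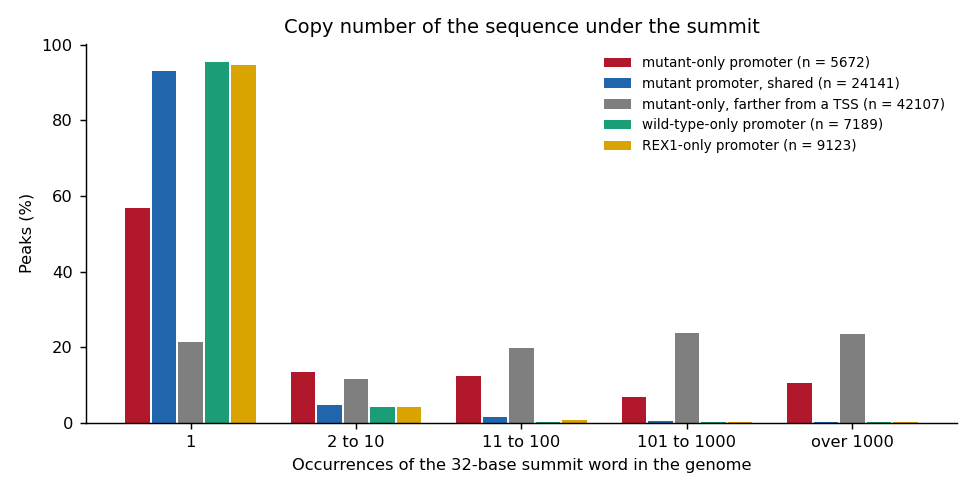
Share of peaks (%) by the number of occurrences of the 32-base summit word in the genome, for mutant-only promoter peaks, shared promoter peaks and distal mutant-only peaks of the mutant list and for RNF12 WT-only and REX1-only promoter peaks. The mutant-only promoter peaks have 56.9% single-copy words against 93.1% in shared promoter peaks, and 10.5% of them have words with over 1000 copies.

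The soft-masking of the reference, read here as repeats, gave a similar split. Its kind is not stated, so it may not be independent of the copy count. The summit base was soft-masked in 2112 mutant-only promoter peaks (37.2%, 36.0% to 38.5%). It was masked in 5.62% of shared, 6.5% of RNF12 WT-only and 9.71% of REX1-only promoter peaks. Among the mutant-only peaks, 72.4% of multi-copy summits and 10.6% of single-copy summits were masked.

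To see how the multi-copy peaks group, windows of 50 bases on either side of the summit were linked where they shared a word of 20 bases. This grouping and the retrocopy counts below were chosen after the data were seen. It gave 221 families with 2440 peaks in all, and the other 3232 peaks shared no such word. The largest family held 1037 peaks, or 18.3% of the set, at 1011 genes. Its summit words had a median of 1136 copies, and 98.9% of its summits were soft-masked. The B1 word was within 150 bp of the summit in 773 of them (74.5%), and for 662 (63.8%) the nearest gene was protein-coding. The next 8 families held 102 to 45 peaks, and 3 of them, with 102, 48 and 45 peaks, are the Gapdh retrocopies described below. In a family of 54 peaks, all soft-masked, the median fold enrichment was 9.83, against 6.20 in the largest family.

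The summits of the B1 class fell at 1 place of the element. In the largest family the median summit was 2 bp past the first base of the B1 word on its strand, with quartiles of -7 and 10 bp. That family was formed by sequence shared near the summit, so some of this closeness is built in. In all mutant-only promoter peaks with the word within 200 bp, the quartiles were -11.5 and 13 bp. In the single-copy ones they were -92 and 74 bp. In shared promoter peaks that have the word within 200 bp, the quartiles were -82 and 112 bp, so that no such place was seen in these. Elements were then searched for without regard to peaks, as a B1 word followed by a B box 15 to 40 bases from it on the same strand. Of 4335 such elements within 1 kb of a TSS, 575 (13.3%, 12.3% to 14.3%) had a mutant-list summit within 50 bp, and a mutant-only promoter peak was at 551. An RNF12 WT summit was at 30 of them (0.692%) and a REX1 summit at 18 (0.415%). The share was similar among 51057 elements farther from a TSS, where 12.1% had a mutant-list summit, 0.591% an RNF12 WT summit and 0.206% a REX1 summit. Most of these elements had no summit of any list within 50 bp.

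The 4 printed B1 peaks had fold enrichments, the ratio of ChIP signal to control at the summit given by the authors, of 11.7 to 12.9. Rps24, a protein of the small ribosomal subunit, had its peak 983 bp downstream of the TSS, with fold enrichment 12.9. At Fbxw7, the substrate receptor of an SCF ubiquitin ligase, the peak was 497 bp upstream with 12.6, and at Setd2, a histone H3 lysine methylase, 526 bp downstream with 12.6. At Ska3, a kinetochore component, the peak was 745 bp downstream with 11.7.

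Processed pseudogenes were often the nearest gene, though the summit need not lie inside them. They were the nearest gene for 1000 mutant-only promoter peaks (17.6%, 16.7% to 18.6%), transcribed ones included. The share was 3.41% in shared, 5.80% in RNF12 WT-only and 4.77% in REX1-only promoter peaks, and 22.2% in distal mutant-only peaks. Of the 1000 peaks, 126 were in the largest family above. A mutant-only promoter summit lay in the body of 492 annotated processed pseudogenes. Among mutant-list promoter peaks at untranscribed processed pseudogenes, 55.6% had no partner in the other lists, against 14.6% at protein-coding genes and 19.0% in all promoter peaks.

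Gapdh retrocopies accounted for 193 of the mutant-only promoter peaks by sequence, at 115 genes. The match required 80% identity to the Gapdh transcript over at least 70 bases, and peaks at Gapdh itself were left out. The same search found 17 shared mutant promoter peaks, 19 RNF12 WT promoter peaks and 6 REX1 promoter peaks. The 193 peaks had fold enrichments from 3.12 to 14.2, with a median of 6.11, and 169 of them had a multi-copy summit word.

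Their summits were not spread along the gene. The transcript is 1420 bases long, with the coding sequence at 241 to 1239, and 41 summits lay at positions 250 to 299, 31 at 550 to 599, 31 at 800 to 849 and 55 at 850 to 899. The last mutant-only summit was at position 973. Summits had to lie within 1 kb of a TSS, so the rule itself keeps out much of the 3′ end of the longer copies and nothing is read from its lack of summits. Single retrocopies held several of these sites: Gm6316 on chromosome 12 had a peak with fold enrichment 14.2 in the third cluster and a peak of 7.23 in the second.

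**Figure D2:**
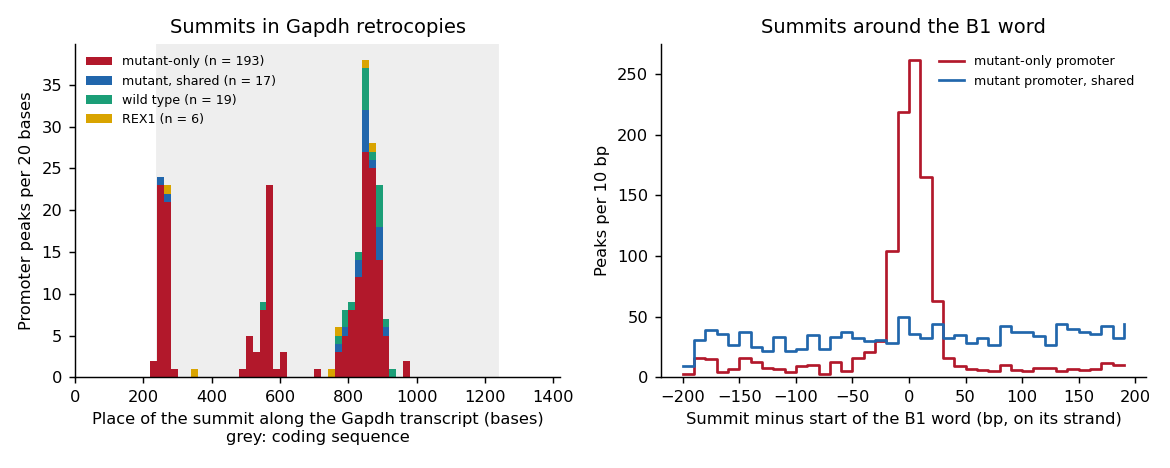
Left, promoter peaks per 20 bases along the Gapdh transcript for peaks that match it, by list, with the coding sequence in grey. Right, mutant-list promoter peaks per 10 bp by distance of the summit from the B1 word. Mutant-only summits cluster around 250 to 299, 550 to 599 and 800 to 899 of the transcript and within about 20 bp of the B1 word, and the shared peaks show no such centre at the B1 word.

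The annotated retrocopies were then taken as the unit, whether or not they had a peak. Of 325 Gapdh retrocopies, 121 (37.2%, 32.2% to 42.6%) had a mutant-list summit in their body, 112 a mutant-only promoter peak, 19 (5.85%) an RNF12 WT summit and 10 (3.08%) a REX1 summit. Rps2, a ribosomal protein gene, had 98 retrocopies, of which 52 (53.1%) had a mutant-list summit, 45 a mutant-only promoter peak and 17 a summit of each of the other lists.

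Other families of retrocopies had few or none. Rpl21, with 88 retrocopies, and Rpl3, with 32, had no mutant-list summit, and Rpl7a had a mutant-only promoter peak in 13 of 159. Rpl29 was different, since 41 of its 119 retrocopies had a mutant-list summit and 29 an RNF12 WT summit, so that 23 held a mutant-only promoter peak. Over all 10142 annotated processed pseudogenes, 9.82% had a mutant-list summit, 4.85% a mutant-only promoter peak, 7.31% an RNF12 WT summit and 5.90% a REX1 summit. The parent gene Rps2 carried a mutant-only peak too. It had fold enrichment 16.2 and lay 98 bp into the gene in a coding exon (chr17:24720285-24720492), with 12 genomic copies of its summit word.

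The mutant-only promoter peaks were weaker than the shared ones of the same list. Their fold enrichment had a median of 5.81, with quartiles of 4.83 and 7.09 and a maximum of 32.2, against a median of 8.92 in shared promoter peaks. A fold enrichment of 10 or more was reached by 6.66% of them and by 41.8% of shared promoter peaks. The median -log10 q was 6.71 against 14.1, and the median width 114 bp against 279 bp. The single-copy class was the weaker one, with a median fold enrichment of 5.47 and 4 peaks at 15 or more, while the multi-copy class had a median of 6.17 and 48 such peaks.

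**Figure D3:**
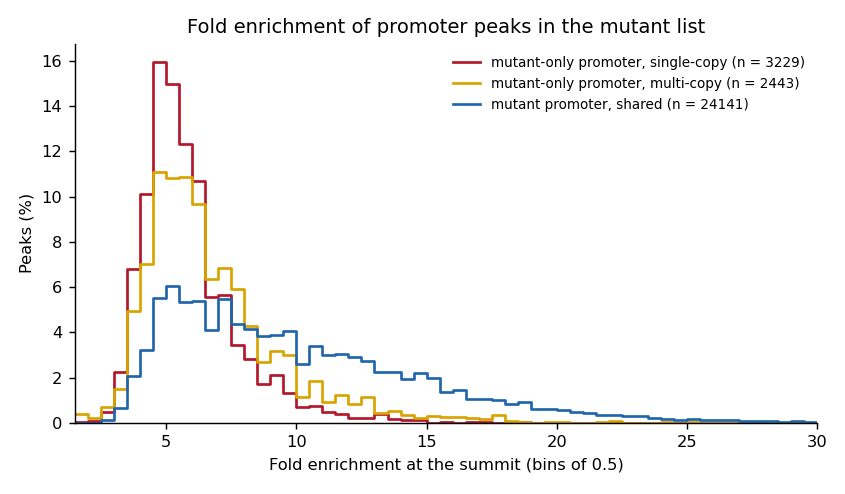
Share of promoter peaks of the mutant list (%) by fold enrichment at the summit, in bins of 0.5, for single-copy and multi-copy mutant-only peaks and for shared peaks. The medians are 5.47, 6.17 and 8.92, and peaks above 30 are outside the axis.

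The composition changed along this scale. The peaks were split by fold enrichment into 5 groups of about equal size. From the lowest to the highest group, the share with a single-copy summit went from 63.7% to 40.2% and the share at processed pseudogenes from 13.9% to 23.0%. The share in CpG-rich windows, meaning at least 50% G and C and a CpG ratio of at least 0.6 over 300 bp, went from 21.5% to 43.6%.

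The 10 highest fold enrichments were mostly at multi-copy sequence. The first, 32.2, lay 407 bp upstream of the lincRNA Gm29371 (chr1:87079655-87080085) at a word with 43 copies. The second, 30.1, lay 110 bp upstream of a TSS of Enpp2 (chr15:54914716-54914938), which encodes the lysophospholipase autotaxin, at a word with 18 copies. Gm43940 (25.4), AC161438.1 (24.0), Gm13710 (22.5), Gm38194 (22.4) and Gm21182 (21.9) followed, none of them protein-coding, and then Lta4h (20.3), a leukotriene A4 hydrolase, and Nup62cl (19.6). The tenth, Lancl1 with 18.8, was the first at a single-copy word.

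By -log10 q the order brought in wide peaks over coding repeats. Gm29371 was again first at 121, AC161438.1 had 88.8 and n-R5s121, a 5S ribosomal RNA gene, 88.7. Ahnak2, which encodes a giant repeat-built scaffold protein, had a peak of 8963 bp in a coding exon (chr12:112775826-112784788, -log10 q 79.2), and all 17 genomic copies of its summit word lay inside that peak. Flg, the epidermal protein filaggrin, likewise built of repeats, had a peak of 2293 bp in a coding exon (chr3:93280116-93282408, -log10 q 60.1) with 3 of 17 copies inside.

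Single-copy peaks at protein-coding genes were 2531, or 78.4% of the single-copy class. Lancl1, a glutathione-binding protein, had its peak 93 bp into the gene, in a UTR (chr1:67038659-67038932), and the nearest REX1 and RNF12 WT peaks were 7164 and 14247 bp away. Rnf220, itself a RING E3 ligase gene, had fold enrichment 17.2 in an intron (chr4:117495438-117495622), 30 bp from a REX1 peak. Cdk2, a cell cycle kinase, had 16.8 at 23 bp upstream (chr10:128704516-128704744), and Iqsec2, an X-linked exchange factor for ARF proteins, 15.8 at 90 bp upstream (chrX:152144017-152144307).

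Kcnk10, a potassium channel gene, had 14.6, and Psd3 and Myc had 14.5 each. The Myc peak, 37 bp into the gene of this proliferation-driving factor (chr15:61986969-61987152), ended 15 bp from an RNF12 WT peak. Setd2 had, besides its B1 peak, a single-copy one of 14.1 in an intron. The chromatin protein gene Hmgb1 (14.0), Lrrn1 (13.8), Dab2ip (13.7) and the RNA-binding protein gene Fxr1 (13.6) came next. All of the peaks in this and the preceding paragraph but that of Setd2 were in CpG-rich windows.

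Many single-copy peaks stood close to a peak of another list without overlapping it. An RNF12 WT or REX1 peak lay within 200 bp of the edge of 39.4% of the single-copy peaks and of 7.25% of the multi-copy peaks. The median distance to the nearest peak of another list was 327 bp in the single-copy class and 4387 bp in the multi-copy class. In the set as a whole, the nearest such peak was an RNF12 WT peak for 50.5% and a REX1 peak for 49.4%.

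The promoter, taken as 1 kb on either side of the nearest TSS, also held a summit of another list for 2775 mutant-only peaks (48.9%, 47.6% to 50.2%). A REX1 summit was there for 37.2% and an RNF12 WT summit for 40.9%. The share was 66.2% in the single-copy and 26% in the multi-copy class, and 33.0% of all mutant-only peaks shared the promoter with a shared mutant peak. In 2889 cases (50.9%) the promoter had no summit of another list and no shared mutant summit. Single-copy peaks at protein-coding genes with no summit of another list in the promoter numbered 703, at 622 genes. After Lancl1, the strongest were at 4931414P19Rik (13.5), the synaptic adhesion gene Lrfn1 (13.1, with another of 11.2), Stac (12.3) and Tmem150c (12.2). At Stac, which encodes an adaptor of calcium channels, the nearest peak of another list was 56831 bp away. The germline gene Piwil1 had a fold enrichment of 10.8.

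Just inside 1 kb were peaks at Slc22a17 and Mir3083, each with the summit at 1000 bp and with fold enrichments of 5.34 and 4.52 and single-copy words. Just outside, 1 bp farther, were peaks at Gm2a (4.99) and Gm8891 (10.3), both at multi-copy words. For overlap, 14 mutant-only promoter peaks touched a peak of another list end to end, among them those at Rapgefl1 (4.36) and Nckap5los (5.34). On the other side, 7 shared promoter peaks owed their partner to 1 bp, among them those at Mink1 (6.31) and Gng2 (8.22). Peaks at the middle of the fold enrichment scale, 5.81, were at Dst, E030030I06Rik and Gm47889.

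Around the TSS, the mutant-only promoter peaks were less centred than the shared ones. The summit was within 150 bp of a TSS for 31.0% (29.8% to 32.2%) of them and for 55.7% of shared promoter peaks, with median distances of 325 and 123 bp. The values were 29.3% for RNF12 WT-only and 25.6% for REX1-only promoter peaks. Upstream positions made up 43.2%, against 39.1% in shared peaks. The single-copy class peaked in the first 50 bp downstream, which held 7.99% of it, while the multi-copy class had 6.06% there and 5.03% in the next 50 bp.

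**Figure D4:**
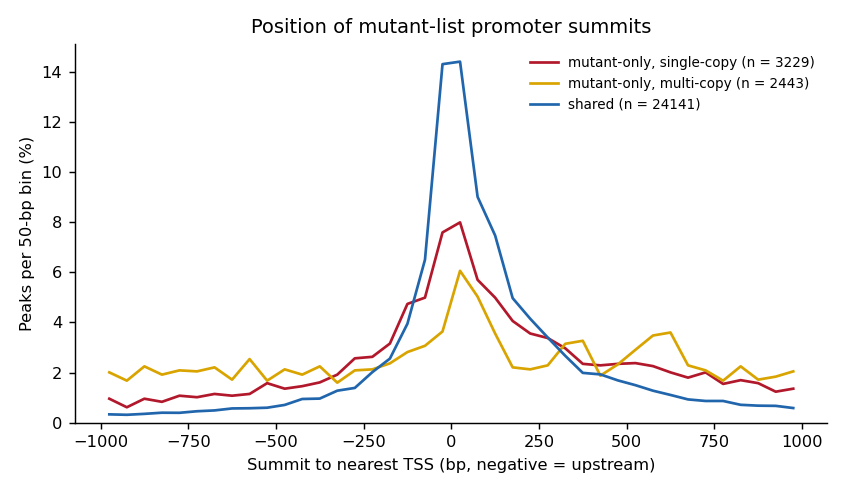
Share of mutant-list promoter summits per 50-bp bin (%) by signed distance to the nearest TSS, for single-copy and multi-copy mutant-only peaks and for shared peaks. The bin just downstream of the TSS holds 14.4% of the shared, 7.99% of the single-copy and 6.06% of the multi-copy summits.

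CpG-rich windows surrounded 27.8% (26.6% to 28.9%) of mutant-only promoter summits, 35.8% in the single-copy and 17.2% in the multi-copy class. They surrounded 74.9% of shared, 9.43% of RNF12 WT-only and 11.2% of REX1-only promoter summits. The summit was in an intron for 34.7% of mutant-only promoter peaks, outside genes for 20.0%, in a non-coding exon for 19.3%, in a coding exon for 18.4% and in a UTR for 7.70%. In shared promoter peaks the UTR share was 27.9%.

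Letter strings were searched on both strands within 50 bp of the summit, in flanks 250 to 350 bp away and in windows of the same length at the TSS of RefSeq mouse promoters. The GC box GGGCGG was in 24.4% (23.0% to 25.9%) of single-copy windows, 10.4% of their flanks and 21.9% of all promoters, and in 35.1% of shared promoter windows. The words of 8 bases with the largest excess over the flanks in the single-copy class were led by CCCCGCCC, with 8.05% against 3.28% in flanks. They also held words without the GC box, such as GCAGCAGC with 4.71% against 1.94% and CCAGCTGC with 3.56% against 1.11%. In the multi-copy class the leading word was the B1 word, with 32.3% against 2.09% in flanks and 1.5% of all promoters. The B box was in 23.7% of multi-copy and 1.49% of single-copy windows.

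The CCAAT box, read by NF-Y, was in 9.24% of mutant-only windows, 12% of their flanks and 13.8% of all promoters. TGACNNNGC, the antioxidant response element, was in 5.91%, 3.83% and 4.85%. The CRE TGACGTCA, read by CREB and ATF factors, was in 1.47% (1.07% to 2.03%) of multi-copy windows, 0.0819% of their flanks and 0.913% of all promoters. GCGCATGC, a part of the NRF1 site, was in 1.84% of multi-copy windows, 0.184% of their flanks and 1.37% of all promoters. In single-copy windows it was in 0.526%. The E-box was in 3.10% of single-copy windows, 1.52% of flanks and 2.96% of all promoters. ATGGCNGC, a form of the REX1 and YY1 recognition letters, was in 2.56% (2.18% to 3.00%) of mutant-only windows, 1.65% of their flanks and 3.28% of all promoters. It was in 4.89% of shared windows and in 6.92% of REX1-only promoter windows. The YY1 core AAGATGGC was in 0.476% (0.327% to 0.692%) of mutant-only windows, 0.635% of their flanks and 1.44% of all promoters. Within 100 bp of the summit it was in 2.03% against 1.31% of flanks of that length, so its direction against the flanks turned with the window, and ATGGCNGC was in 3.74% against 3.34%. The TATA box TATAAA was in 0.353% of mutant-only windows, 4.44% of flanks and 4.97% of all promoters. Within 100 bp of the summit it was in 3.83% against 8.29% of flanks of that length. A match of letters does not show binding.

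The peaks were nearest to 4804 of 53734 annotated gene symbols (8.94%) and to 2944 of 21727 protein-coding ones (13.5%). The gene lists below are set beside this last share. Lists matched by a pattern in the symbol, such as the ubiquitin-conjugating enzymes and olfactory receptors, also hold pseudogenes, for which it is not the matching share: 8.15% of processed and 3.85% of unprocessed pseudogenes had a mutant-only peak. They were chosen with earlier results of these data known, and differences from 13.5% were not tested. Of 22 genes of naive pluripotency, the ground state of mESCs, 6 had a mutant-only peak, all single-copy. Klf2, a factor of this state, had 10.5 at 274 bp upstream (chr8:72318697-72318854), 14 bp from a REX1 peak. Tbx3 had 8.77 and Dppa4 5.60. Of 8 pluripotency genes used to check the cell type, Esrrb alone had mutant-only peaks, 2 in all. Of the others, 5, among them Pou5f1, Sox2, Klf4 and Tfcp2l1, had mutant-list promoter peaks that were all shared, and Nanog and Dppa3 had none. Peak lists hold no expression, so the cell type itself could not be checked further.

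Of 17 genes of the primed state and FGF signalling, 6 (35.3%) had one, among them the FGF feedback inhibitor Spry2 (13.6, at 285 bp upstream, chr14:105897001-105897184), Etv5 (8.77) and the DNA methyltransferase gene Dnmt3b (6.76). Of 17 known substrates and partners of RNF12, 4 had one: Myc, Lmo4 (9.29), Ldb1 and Rnf6 (6.46). Lmo4 encodes a LIM-domain protein, and Rnf6, a related ligase, had its peak at a word with 9380 copies. None of 10 genes of the X inactivation centre had one, although 8 had a mutant-list promoter peak.

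Among genes of the ubiquitin system, 16 of 86 genes named Rnf (18.6%) had a mutant-only peak, 10 of 69 tripartite motif genes, 9 of 79 F-box genes, 8 of 43 ubiquitin-conjugating enzyme genes and pseudogenes, 8 of 58 deubiquitinases named Usp and 4 of 49 proteasome subunits. After Rnf220 the strongest of the first group were Rnf114 (9.15) and Rnf166 (8.03). Of the 8 ubiquitin-conjugating enzyme genes and pseudogenes with a peak, 4 had only multi-copy ones. Among these were Ube2a (8.77, a word with 15271 copies) and the processed pseudogene Ube2n-ps1 (7.79, 2 copies).

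Of 39 Hox genes, 12 (30.8%) had a mutant-only peak, led by Hoxd13 (9.80), Hoxd8 (9.25) and Hoxc9 (8.22), and all 12 had a single-copy one. Of 26 calcium channel genes 8 (30.8%) had one, of 48 glutamate and GABA receptor genes 13 (27.1%), of 29 Wnt and frizzled genes 8 (27.6%) and of 56 TGF-beta family genes 12 (21.4%). The strongest peak of each was at the calcium channel gene Cacna1d (12.8, a word with 1089 copies), the kainate receptor gene Grik1 (9.23), Wnt6 (9.15) and the signal transducer gene Smad2 (13.1), the last 3 at single-copy words. These lists are short and their shares rest on few genes. Of 379 solute carrier genes 59 (15.6%) had one, of 99 potassium channel genes 17 (17.2%), of 45 collagen genes 9 (20%) and of 55 keratin genes 10 (18.2%). The shares were 15.8% of 19 Sox genes and 12.3% of 57 clustered protocadherin genes.

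No replication-dependent histone gene of 70 had a mutant-only peak, although 48 had a mutant-list promoter peak. The shares were 6.82% of 88 splicing factor genes, 6.36% of 110 respiratory chain genes and 1.64% of 1405 olfactory receptor genes, where 35 had any mutant-list promoter peak. Of 89 cytosolic ribosomal protein genes 13 (14.6%) had one, and in 4 of these there was a single-copy one. Of 416 genes named Zfp, 54 (13.0%) had one, led by Zfp526 (10.9).

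Most genes had a single mutant-only peak. There were 4110 genes with 1, 552 with 2 and 142 with 3 or more, and 23 of the latter were on chromosome 10. Map2k2, a kinase of the ERK pathway, had 6, spread over several of its TSSs between chr10:81106586-81106693 (fold enrichment 5.41) and chr10:81129430-81129615 (9.60), all at single-copy words. Hmg20b, a component of the LSD1 corepressor complex, had 5 with fold enrichments of 4.35 to 10.8. Lrp1, an endocytic receptor, had 5 of 3.90 to 7.79 and Bicra, a BAF complex gene, 5 of 3.63 to 6.82.

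The set was not even across chromosomes. Mutant-only peaks made up 26.9% (24.7% to 29.1%) of mutant-list promoter peaks on chromosome 10, 23.8% (21.5% to 26.4%) on chromosome 12 and 22.3% (19.9% to 25%) on the X. On each of the other chromosomes the share was between 15.5% and 21.1%. The number of RNF12 WT peaks was low on the same chromosomes. For each 100 mutant-list peaks, the RNF12 WT list had 65.7 on chromosome 10, 53.2 on chromosome 12 and 62.8 on the X, against 90.4 to 129 elsewhere. The REX1 list had 97.5, 137 and 60.8, against 85.6 to 115 elsewhere, so that it was low on the X alone and high on chromosome 12. The part of these numbers in the shares was not tested.

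**Figure D5:**
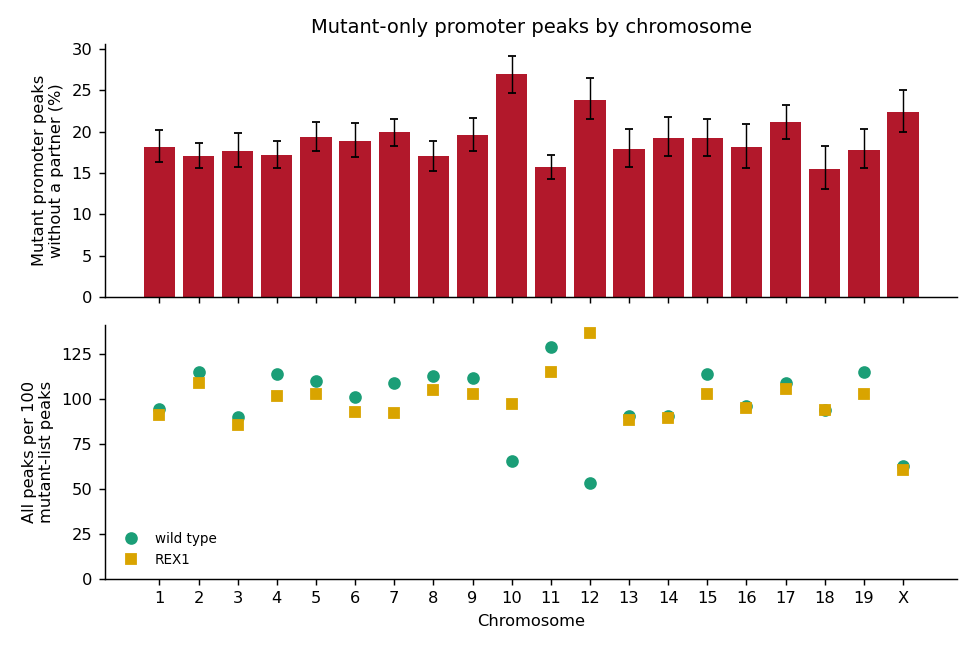
Top, share of mutant-list promoter peaks without a partner (%) on each chromosome, with 95% Wilson intervals as bars. Bottom, number of RNF12 WT and REX1 peaks per 100 mutant-list peaks on each chromosome. Chromosomes 10 and 12 have the highest shares (26.9% and 23.8%) and few RNF12 WT peaks, and the X, at 22.3%, has few peaks of both other lists.

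On chromosome 10 a gene-dense stretch, chr10:79000001-82000000, held 132 mutant-only peaks among 357 mutant-list promoter peaks (37.0%), at 72 genes. Of these, 93.2% had a single-copy summit. The lists held 716 mutant, 543 RNF12 WT and 665 REX1 peaks there. In the last 1 Mb of this stretch there were 74, the most in any window of 1 Mb, and Map2k2 and Hmg20b lie in it. On chromosome 12, the window chr12:112000001-113000000 held 24 mutant-only peaks, 119 mutant-list peaks, 121 REX1 peaks and 29 RNF12 WT peaks.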

How the data were processed

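ChIP-seq peak lists of REX1, RNF12 WT and RNF12 H569A,C572A were analysed, 1 library each. Per the submitters' notes, the authors trimmed reads with Trim Galore 0.6.7, aligned them with Bowtie2 2.5.0 to mm10 masked at strain differences, merged alleles with SAMtools 1.10 and called narrow peaks with MACS2 2.2.7.1. How reads with several best alignments were treated is not given in the sources used here. The authors deposited, per peak, the fold enrichment (a ratio of signal at the summit to the control), the −log10 p-value and the −log10 q-value, and a score that was not used. Fold enrichments were compared only within the mutant list, since which control stands behind each list was not settled.

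From these, overlaps of at least 1 bp, TSS distances (GENCODE M21), summit copies, motif strings and BLAST 2.17.0 matches were computed in Python 3.11.15 with pandas 2.3.3 and numpy 2.4.6. Sequence is GRCm38.p6, a patch release of mm10. The kind of soft-masking is not stated with it. Some of the strings searched are not reported here. The overlap, distance and motif steps were tested on simulated data. Named peaks are the 10 highest by fold enrichment and by −log10 q, up to 3 per gene list, those nearest the median and the limits, and promoters with 3 or more. Single-copy peaks at coding genes, and those with no summit of another list in the promoter, were added after their values were seen. The set and the lists were chosen with earlier results of these data known. Intervals are 95% Wilson intervals. Alternatives changed the overlap, threshold, distance, annotation, chromosomes and sequence filters.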

Additional observations from a re-analysis of the deposited data

Results flagged for a closer look

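Chromosome Y lay outside the rule, and 16 RNF12 H569A,C572A promoter peaks there overlapped no peak of the other lists. This was looked at because it is signal outside the chromosomes of the main set, in cells labelled female. All 16 had a multi-copy summit word. Neither the REX1 nor the RNF12 WT list had a promoter peak of its own there, with 201 and 238 peaks on the chromosome in all against 975 in the mutant list.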

How the results depend on the processing

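The main values are 5672 peaks, 19.0% of promoter peaks unpartnered, 27.8% in CpG-rich windows and 56.9% with a single-copy summit. With an overlap of 50% of both peaks required, the values were 13894 peaks, 46.6%, 55.4% and 78.5%. With no other-list peak within 200 bp, 4222 peaks were left, and the shares were 14.2%, 20.6% and 46.3%. Within 1 kb, the values were 2800 peaks, 9.39%, 18.4% and 36.6%. At −log10 q of at least 5, 4192 peaks were left, with 16.3%, 30.1% and 50.5%. With summits within 500 bp, they were 3685 peaks, 15.0%, 33.5% and 62.9%. With TSSs of protein-coding genes alone, they were 3673 peaks, 14.4%, 30.0% and 71.8%. Without soft-masked summits, 3560 peaks, 13.5%, 36.2% and 81.1% resulted, and without multi-copy words 3229 peaks, 12.6% and 35.8%. Without chromosomes 10 and 12 the unpartnered share was 18.4%. A stricter definition of CpG-rich (55% G and C, ratio 0.65), chosen after seeing the data, gave 18.3%. A −log10 q of at least 2 and the nearest edge in place of the summit gave 5631 and 5887 peaks and left the 3 shares within their intervals. Of 120 values of the other results under the alternatives, 48 stayed within the interval of the main value and 72 did not. The cause of these moves was not tested beyond the peaks each alternative removes or adds. With 1 library per list, no replicate could be left out and depth could not be weighed. No paired analysis was possible because each list comes from 1 library.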

Other observations

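Among ribosomal RNA sequence, 10 mutant-only promoter peaks were nearest to 9 of 179 annotated n-R5s genes, which carry 5S ribosomal RNA sequence. In 5 of them the summit lay inside the first 120 bases of the annotated gene, at words with 45 to 50 copies and with fold enrichments from 3.41 to 10.6. The widest mutant-only promoter peak at a word found once in the reference was at Gm26917 (chr17:39842996-39846361), annotated as a lincRNA. It was 3366 bp wide with fold enrichment 3.42 and lay 42976 bp from the nearest peak of another list. Copies were counted in the reference chromosomes alone, so copies absent from them are not seen.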
